A study of Mus musculus with 54 samples.

Results

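The inflammasome and pyroptosis genes described here are 8 genes picked by symbol, Nlrp3, Nlrp1b, Aim2, Naip5, Pycard, Casp1, Casp4 and Gsdmd, and all 8 were found among the 33280 gene symbols measured. Bulk RNA-seq of sorted microglia (MG) and of CD206+ border macrophages named subdural CNS-associated macrophages (sdCAMs), which line leptomeninges and perivascular spaces, from mouse brains without choroid plexus gave 54 libraries in 18 groups of 3. The question put to these genes was how their levels differ between the cell types, how they respond to lipopolysaccharide (LPS, a bacterial endotoxin), and whether genotype, origin or earlier depletion of the cells alters that response.

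Wild-type (WT) mice of the C57BL/6JCrl strain and mice without the chemokine receptor gene Ccr2 (Ccr2-/-, strain B6.129S4-Ccr2tm1Ifc/J) formed 3 groups each. The PBS group was left without treatment and injected with PBS, the CTL group received vehicle and then LPS, and the BLZ group received BLZ945, which blocks the CSF1 receptor and thereby depletes both cell types, and LPS once the cells had returned. The LPS response given below is CTL with LPS against PBS, so vehicle and LPS cannot be told apart. WT and Ccr2-/- mice came from different suppliers, so the Ccr2 deletion and the line of mice cannot be told apart either. Reporter mice, labelled Ccr2CreERT2/CreERT2:R26tdT/tdT, carried a tamoxifen-inducible Cre at Ccr2 and a tdTomato reporter, were treated with BLZ945 and with tamoxifen at 2 mg, and gave MG, tdT+ sdCAMs and tdT- sdCAMs. The tdT+ cells derive from a Ccr2-expressing source that recombined under tamoxifen, and the tdT- cells include any cell in which recombination failed. LPS or PBS was given 8 weeks after treatment and 12 h before sorting. The study's methods give the age only as a range and name a batch correction of the WT and Ccr2-/- data, while the labels put all WT and Ccr2-/- libraries in one batch and reporter libraries in another, and the counts used here are uncorrected. Any batches among the WT and Ccr2-/- libraries were therefore not modelled.

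Inflammasomes are cytosolic complexes that assemble when a sensor meets a microbial product or a sign of cell damage. The sensor recruits the adaptor ASC, encoded by Pycard, which brings in pro-caspase-1, and active caspase-1 matures interleukin-1beta and interleukin-18 and cleaves gasdermin D into a fragment that opens pores in the cell membrane. In mice, caspase-11, the product of Casp4, binds LPS in the cytosol and cleaves gasdermin D on its own, and the lytic death that follows is called pyroptosis. In macrophages, transcription of several of these genes is known to be primed through Toll-like receptors and interferons, while the assembly itself is a step between proteins that RNA levels do not show.

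The stretches of sequence before the start sites of 3 members are shown because the LPS results turn on these genes. They are 250 bases each, read from RefSeq on GRCm38.p6, 5' to 3' on the strand of the gene, and capitals mark matches to the NF-kappaB consensus. Casp4 lies on chromosome 9 right after Casp1, and the windows are chr9:5308599-5308848 on the plus strand, chr11:59541319-59541568 on the plus strand for the second of the Nlrp3 starts listed, and chr7:127993868-127994117 on the minus strand for Pycard.

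Casp4: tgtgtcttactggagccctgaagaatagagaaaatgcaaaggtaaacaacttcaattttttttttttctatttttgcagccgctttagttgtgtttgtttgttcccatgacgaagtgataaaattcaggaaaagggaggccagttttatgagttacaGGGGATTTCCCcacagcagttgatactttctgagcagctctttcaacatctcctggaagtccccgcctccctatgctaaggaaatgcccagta

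Nlrp3: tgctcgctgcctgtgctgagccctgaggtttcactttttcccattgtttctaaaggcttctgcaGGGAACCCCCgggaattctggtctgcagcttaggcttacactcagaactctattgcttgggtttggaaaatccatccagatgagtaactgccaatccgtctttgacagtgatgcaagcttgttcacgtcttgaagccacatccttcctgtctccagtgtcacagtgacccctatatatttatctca

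Pycard: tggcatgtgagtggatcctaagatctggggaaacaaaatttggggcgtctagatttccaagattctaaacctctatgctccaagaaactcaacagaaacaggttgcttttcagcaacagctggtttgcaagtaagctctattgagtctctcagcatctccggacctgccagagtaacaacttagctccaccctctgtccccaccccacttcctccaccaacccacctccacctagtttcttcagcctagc

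Windows of 300 bases around the start were searched on both strands for 3 motifs, GAAANNGAAA (of interferon response elements), TTCNNNGAA (of interferon-gamma activated sites) and the NF-kappaB consensus. Windows were listed for 7 of the 8 members, since none was listed for Gsdmd. The NF-kappaB consensus was matched before Casp4, 93 to 83 bases ahead of the first listed start, where 3 overlapping matches on the 2 strands form one stretch. It was also matched before the second Nlrp3 start and before Naip5. This motif was present in 4.51% of 32851 windows listed for mouse genes. GAAANNGAAA was present in 3.44% and TTCNNNGAA in 8.3% of them, and in none of the members' windows. No binding was measured in these data.

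Library totals lay between 1705930 and 11330781 counts. The 9 WT sdCAM libraries, at 1705930 to 7699790, were mostly shallower than the 9 WT MG libraries, at 7497764 to 9506827. The ranges overlapped, since WT sdCAMs of CTL mouse 1 (7699790) and BLZ mouse 12 (7533882) exceeded WT MG of PBS mouse 9 (7497764). Ccr2 lay between 1.69 and 5.59 counts scaled to library size (CPM) in the Ccr2-/- sdCAMs and between 16.8 and 43 CPM in the WT sdCAMs with PBS, while WT sdCAMs after LPS, at 0 to 6.99 CPM, and WT MG, at 0.936 to 10.6 CPM, overlapped the Ccr2-/- range. In the WT libraries with PBS, sorted identities followed the markers. The summed level of 5 MG markers (P2ry12, Tmem119, Sall1, Siglech, Sparc) was 17500 to 18900 CPM in WT MG and 4030 to 6760 CPM in WT sdCAMs with PBS, while that of 7 sdCAM markers (Mrc1, Pf4, Lyve1, Cd163, F13a1, Cbr2, Ms4a7) was 10.7 to 12.1 and 8710 to 16100 CPM. All 5 MG markers were thus also detected in sdCAMs, and the part of microglial RNA in the sdCAM values was not tested. In 6 WT sdCAM libraries, the labels carry a mark, IEG correction, which they do not explain, and these were CTL mice 1, 4 and 6, BLZ mouse 12 and PBS mice 9 and 14.

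A gene was called where the adjusted p of edgeR's quasi-likelihood test was under 0.05 and the log2 fold change over 1 in size. In the alternative fits with DESeq2, a missing adjusted p, as for 7 values of the members, counted as no call. Levels are CPM after TMM scaling over all 54 libraries, as mean ± SD with n = 3 unless single libraries are given, and fold changes carry the standard error (SE) of the fit. Statements that groups did not overlap are descriptions, and the share of all genes whose groups did not overlap was not counted. The scaling weighs on the WT and tdT- sdCAMs after LPS. With library totals in place of TMM, an alternative added after the data were seen, the median log2 fold change of all genes after LPS went from -0.08 to -1.55 in WT sdCAMs and from 0.04 to -0.75 in tdT- sdCAMs, and the calls from 389 higher and 275 lower genes to 311 and 2575, and from 1848 and 1523 to 1087 and 3250. In bulk samples, fewer cells of a type and less RNA per cell cannot be told apart. Naip5 shares sequence with other Naip genes and Nlrp1b with Nlrp1a, and Pycard has 485 bases of exon in common with a predicted gene on the other strand, so reads could have been divided between these genes.

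**Figure D1:**
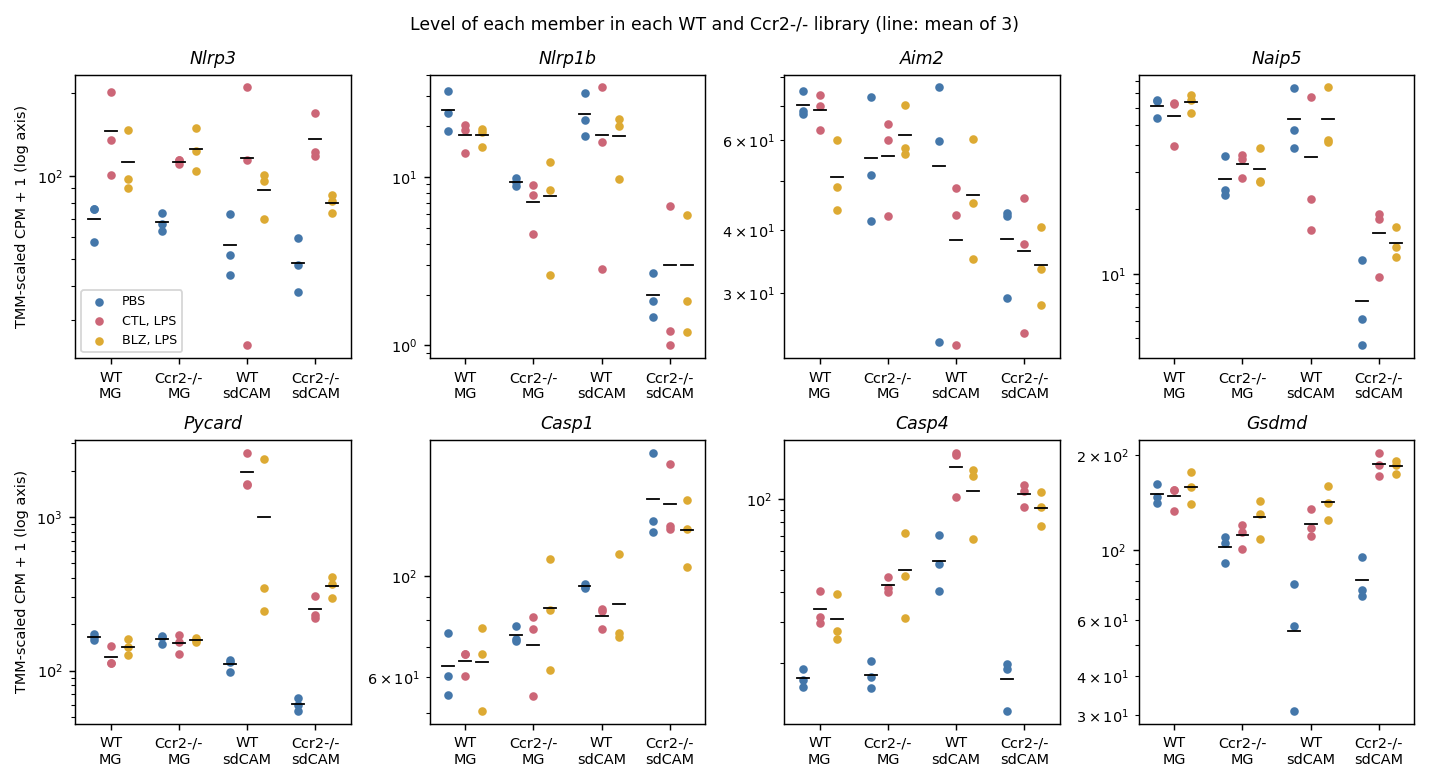
Level of each member in each of the 36 WT and Ccr2-/- libraries, in TMM-scaled CPM plus 1 on a log axis, with PBS in blue, CTL with LPS in red, BLZ with LPS in yellow and a line at the mean of 3. Pycard stayed between 111 and 171 CPM in the MG libraries drawn here, whereas in WT sdCAMs it went from 96.3 to 116 CPM with PBS to 1620 to 2610 CPM in CTL mice with LPS.

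At rest, Casp4 and the pore-forming gene Gsdmd were divided unevenly between the cell types in WT mice. Gsdmd encodes gasdermin D and was measured at 146, 140 and 161 CPM in MG of WT mice with PBS and at 30, 56.4 and 77.1 CPM in their sdCAMs, and the groups did not overlap. Casp4 showed the opposite order, with 15.9, 14.8 and 17.9 CPM in MG and 69.7, 39.4 and 52.1 CPM in sdCAMs, again without overlap. In WT mice, sdCAMs were thus lower in Gsdmd by a log2 fold change of -1.45 (SE 0.299, adjusted p = 0.00356 by edgeR) and higher in Casp4 by 1.75 (SE 0.342, adjusted p = 0.00242). These 2 of 8 members were called, against 17.1% of all 13136 genes tested. With mouse as a replicate block, since MG and sdCAMs were paired within animals, the values were -1.53 and 1.71 and both calls held, whereas with library totals the Casp4 call was lost (1.4, adjusted p = 0.0699). Casp1, at 62.4 ± 10.5 CPM in MG and 93.9 ± 0.979 CPM in sdCAMs, was not called (0.61, adjusted p = 0.121).

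In Ccr2-/- mice with PBS, Pycard, Naip5 and Casp1 were called between the cell types. Pycard was measured at 167, 163 and 148 CPM in MG and at 58.5, 65.1 and 53.7 CPM in sdCAMs, a log2 fold change of -1.44 (SE 0.162, adjusted p = 1.67e-06 by edgeR). Naip5, a sensor of bacterial flagellin, stood at 34.6, 23.8 and 22.3 CPM in MG and at 5.12, 3.61 and 10.6 CPM in sdCAMs, a log2 fold change of -2.06 (SE 0.373, adjusted p = 0.000386). Casp1, which encodes the caspase that matures interleukin-1beta, was higher in sdCAMs, at 124, 186 and 131 CPM against 76.6, 71.2 and 71.7 CPM. None of these 3 genes overlapped between the cell types. The Casp1 difference was a log2 fold change of 1.00 (SE 0.224, adjusted p = 0.00268), which sat on the fold limit, and the call was lost with the paired replicate block (0.98), with library totals (0.98), without sdCAMs of mouse 3m (0.8) and without MG of 3m or 5f (0.98 and 0.99). In Ccr2-/- mice, 3 of 8 members were called against 15% of 12890 genes tested, and Casp4, at 16.8 ± 2.39 CPM in MG and 16.1 ± 3.97 CPM in sdCAMs, differed by -0.07 (SE 0.264). Nlrp1b, at 8.31 ± 0.526 CPM in MG and 1 ± 0.632 CPM in sdCAMs, did not overlap, and its sdCAM libraries held 4 to 15 counts. Its log2 fold change of -3.05 (SE 1.24) had an adjusted p of 0.0877 by edgeR. It was called with DESeq2 (-3.04, adjusted p = 0.0332) and without the low-count filter (-3.04, adjusted p = 0.00422). Whether the cell type difference depends on genotype was not tested. In WT mice Pycard was also lower in each sdCAM library, at 116, 113 and 96.3 CPM against 171, 165 and 156 CPM in MG, with a log2 fold change of -0.57 (adjusted p = 0.534) that was called with the IEG mark, described above, as a covariate (-1.6, adjusted p = 0.032).

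The resting levels also differed between genotypes. Naip5 was lower in Ccr2-/- than in WT mice in both cell types, with 60 ± 6.66 against 26.9 ± 6.71 CPM in MG and 52.3 ± 18.6 against 6.45 ± 3.7 CPM in sdCAMs. The single WT sdCAM values were 73.2, 37.8 and 46 CPM, so the groups did not overlap in either cell type. The log2 fold changes were -1.18 in MG (SE 0.216, adjusted p = 0.00119 by edgeR) and -3.00 in sdCAMs (SE 0.579, adjusted p = 0.00506), and both calls held in all alternatives run. Nlrp1b, a sensor known for its activation by anthrax lethal factor, was measured at 31, 22.7 and 17.7 CPM in WT MG and at 8.84, 8.31 and 7.79 CPM in Ccr2-/- MG. That log2 fold change of -1.53 (SE 0.432, adjusted p = 0.0198) lost its call without WT mouse 9 and without any 1 of the 3 Ccr2-/- mice, with adjusted p between 0.0521 and 0.0773. In sdCAMs Nlrp1b was at 16.4, 20.7 and 30.2 CPM in WT and at 0.837, 0.465 and 1.7 CPM in Ccr2-/- mice, without overlap, but the log2 fold change of -4.42 (SE 1.43) had an adjusted p of 0.0563 by edgeR and passed the threshold with DESeq2 (0.00329) and without the low-count filter (0.00272).

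Casp4 was the other member that differed by genotype in sdCAMs with PBS. WT libraries held 69.7, 39.4 and 52.1 CPM and Ccr2-/- libraries 11.5, 17.9 and 18.8 CPM, a log2 fold change of -1.72 (SE 0.352, adjusted p = 0.00704 by edgeR), which missed the threshold without Ccr2-/- mouse 1m (adjusted p = 0.0529) and with library totals (0.058). In MG, Casp4 was at 16.2 ± 1.57 and 16.8 ± 2.39 CPM in the 2 genotypes. The resting genotype difference was called for 2 of 8 members in MG against 5.52% of 12423 genes, and for 2 of 8 in sdCAMs against 9.5% of 13258 genes. MG Gsdmd was lower in Ccr2-/- mice, 101 ± 9.86 against 149 ± 11.3 CPM, with a log2 fold change of -0.58 (SE 0.142, adjusted p = 0.00835) that stayed under the fold limit. Beside the sdCAM differences, the MG marker sum in sdCAMs with PBS was 4030 to 6760 CPM in WT and 1890 to 2860 CPM in Ccr2-/- mice. In MG with PBS it was 17500 to 18900 and 26000 to 26300 CPM. The sdCAM library totals with PBS were 1929070 to 3049028 counts in WT and 8124128 to 8929948 in Ccr2-/- mice. The part of microglial RNA or of depth in the genotype differences was not tested.

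**Figure D2:**
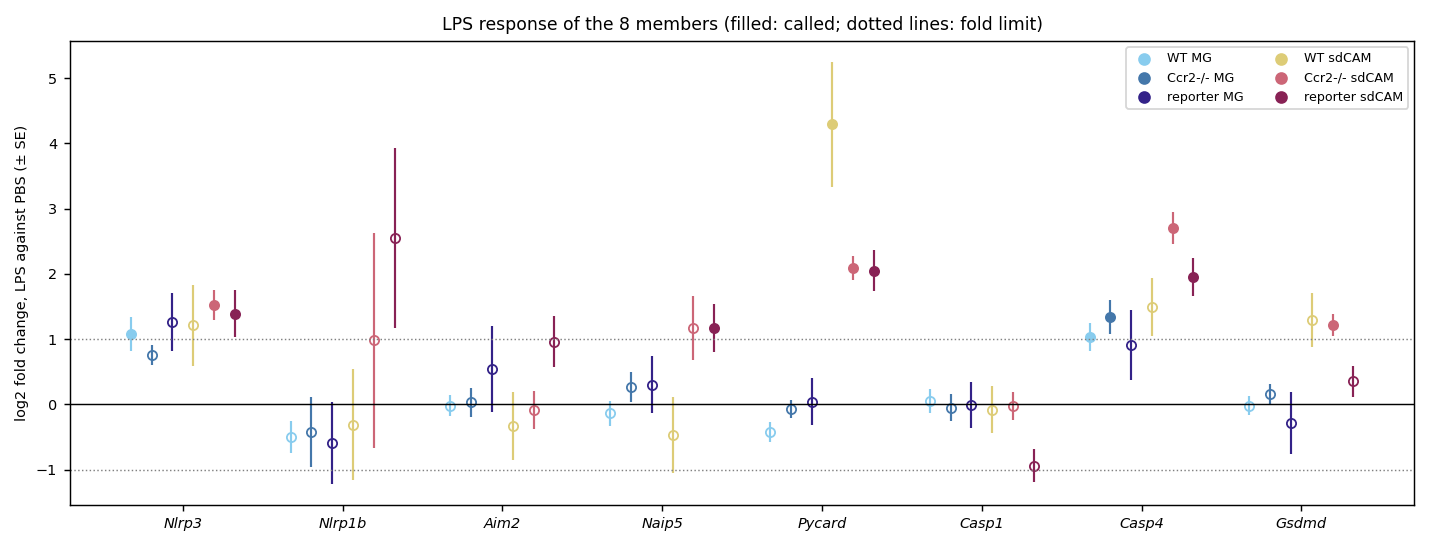
Log2 fold change of each member after LPS against PBS in 6 comparisons, with bars of ± 1 SE, filled points for calls and dotted lines at the fold limit; MG are in blues, sdCAMs in yellow to purple, and reporter sdCAMs are summed per mouse. Pycard changed by -0.42, -0.07 and 0.04 in the MG comparisons and by 4.29, 2.09 and 2.05 in the sdCAM comparisons.

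Among the sensors, Nlrp3 was the member that rose with LPS in both cell types. NLRP3 responds to potassium efflux and other signs of membrane or organelle damage. In WT MG it was measured at 74.8, 75.1 and 56.7 CPM with PBS and at 200, 99.9 and 134 CPM after LPS, and in Ccr2-/- sdCAMs at 36.8, 46.5 and 58.3 CPM and then 168, 121 and 117 CPM. All LPS libraries lay above all PBS libraries in both. The log2 fold changes were 1.08 (SE 0.258, adjusted p = 0.0081 by edgeR) and 1.52 (SE 0.225, adjusted p = 0.000251). The call in WT MG was lost without CTL mouse 1 (0.78) or PBS mouse 15 (0.95). In Ccr2-/- MG, Nlrp3 rose without overlap from 66.8 ± 5.1 to 112 ± 2.12 CPM, and its log2 fold change of 0.76 (SE 0.155, adjusted p = 0.00159) was under the fold limit. In WT sdCAMs the LPS values of 208, 23.3 and 113 CPM spanned the PBS values of 42.8, 50.7 and 71.8 CPM, and a log2 fold change of 1.21 (SE 0.619) had an adjusted p of 0.25.

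The remaining sensors were not called in the WT or Ccr2-/- responses of all libraries. AIM2 senses cytosolic DNA, and its gene stood at 69.4 CPM with PBS and 67.9 CPM after LPS in WT MG, with log2 fold changes between -0.33 and 0.03 over the 4 responses. Naip5 had log2 fold changes of -0.14 and 0.26 in WT and Ccr2-/- MG. In Ccr2-/- sdCAMs, Naip5 went from 6.45 ± 3.7 to 14.6 ± 5.21 CPM, where the lowest LPS library, at 8.6 CPM, lay below the highest PBS library, at 10.6 CPM, and the adjusted p was 0.0957. Without PBS mouse 5f, Naip5 was called there (1.76, adjusted p = 0.0317). Nlrp1b fell in none of them by the test, and its Ccr2-/- sdCAM libraries of CTL mice held only 0 to 44 counts after LPS.

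The adaptor gene Pycard was called after LPS in the sdCAMs of both genotypes and in no MG comparison. In WT sdCAMs the PBS libraries of mice 9, 14 and 15 held 116, 113 and 96.3 CPM, and the CTL libraries of mice 1, 4 and 6 held 1630, 2610 and 1620 CPM after LPS. The Ccr2-/- sdCAM levels were 58.5, 65.1 and 53.7 CPM with PBS and 228, 220 and 306 CPM after LPS. The groups stood far apart in both genotypes, and every LPS library exceeded every PBS library. The log2 fold change was 4.29 in WT (SE 0.96, adjusted p = 0.0271 by edgeR) and 2.09 in Ccr2-/- sdCAMs (SE 0.184, adjusted p = 3.83e-06). The WT call was lost when any 1 of the 6 libraries was left out, with adjusted p from 0.0597 to 0.115 and log2 fold changes from 4.05 to 4.42, whereas no alternative ended the Ccr2-/- call. With library totals the WT value was 2.82 (adjusted p = 0.0111), and the plain CPM were 98.1, 112 and 114 with PBS and 560, 938 and 802 after LPS, still without overlap. MG libraries held 164 ± 7.69 CPM with PBS and 122 ± 19.4 CPM after LPS in WT, and 159 ± 9.79 and 149 ± 20 CPM in Ccr2-/- mice.

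The difference between the cell types was tested as an interaction. The LPS response of Pycard was larger in sdCAMs than in MG by a log2 value of 4.63 in WT mice (SE 0.871, adjusted p = 0.0135 by edgeR) and of 2.2 in Ccr2-/- mice (SE 0.226, adjusted p = 4e-06). In WT mice it was the 1 member of 8 called by edgeR, against 1.32% of 13136 genes, and without MG of CTL mouse 6 the adjusted p was 0.0567. Gsdmd, with a WT interaction of 1.23 (adjusted p = 0.135), was called by DESeq2 (1.39, adjusted p = 0.0124) and was at -0.32 with library totals. In Ccr2-/- mice 3 of 8 members were called, against 6.88% of 12890 genes. The others were Casp4, whose response was larger in sdCAMs by 1.40 (SE 0.366, adjusted p = 0.0224), and Gsdmd, larger by 1.10 (SE 0.215, adjusted p = 0.00247). The Casp4 interaction was lost in 5 of the fits that left out 1 library (sdCAMs of V1m or 1m, MG of V2m, V4f or 1m), with adjusted p between 0.0516 and 0.0702, and the Gsdmd interaction fell to 0.99, under the fold limit, without sdCAMs of 1m and to 0.86 with library totals.

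Beside the high Pycard values in WT sdCAMs, other properties of these libraries moved. All 4 LPS libraries over 1000 CPM, those of CTL mice 1, 4 and 6 and BLZ mouse 12, carried the IEG mark. In them, 54.7% to 65.6% of the counts came from protein-coding genes shorter than 1000 bases. A gene's length here was that of its longest principal transcript in the annotation, or else of its longest coding transcript. The WT BLZ libraries without the mark, of mice 8 and 11, had such a share of 9.28% and 6.8% and Pycard at 342 and 244 CPM. These values were still above the 3 PBS libraries, whose short-gene share was 19.5%, 12.1% and 4.5%. Among the 556 short genes tested in WT sdCAMs the median log2 fold change after LPS was 2.48, against -0.08 over all 10504 genes, while in Ccr2-/- sdCAMs these medians were 0.15 and -0.05. In the annotation used, the 2 coding transcripts of Pycard are 493 and 3800 bases long. Its length was taken as 3800 bases, so it was not counted among the short genes, where the other transcript would have placed it. Of all genes tested in WT sdCAMs, 2.26% had a larger log2 fold change than Pycard, and so did 70 of the 556 short genes. With the mark as a covariate, the WT value was 3.58 (adjusted p = 0.00688 by edgeR). Among marked libraries alone, CTL mice 1, 4 and 6 against PBS mice 9 and 14, it was 4.16 (adjusted p = 0.00166). Neither fit accounts for the short-gene share, which was 19.5% and 12.1% in these PBS libraries and 54.7% to 65.6% in the CTL libraries. The part of the short-gene share in the WT value was not tested.

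**Figure D3:**
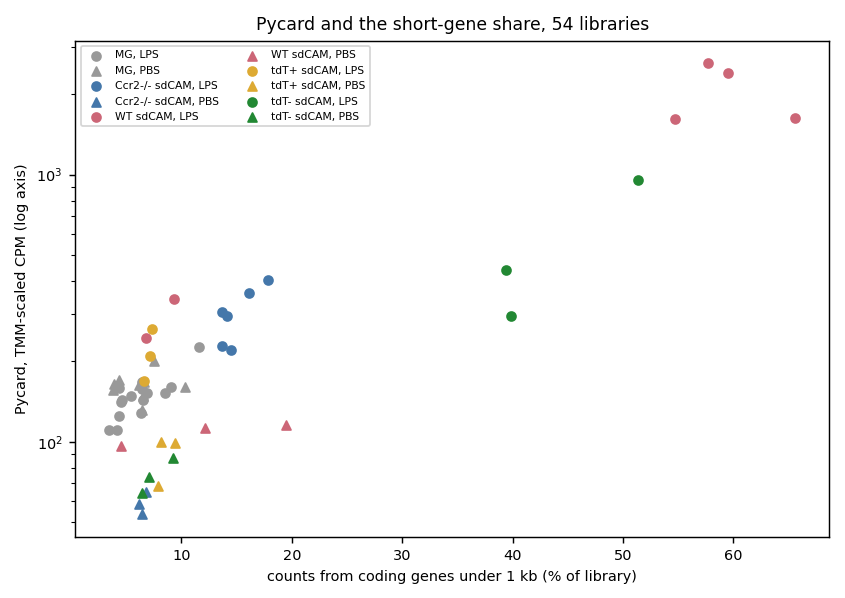
Pycard level in TMM-scaled CPM on a log axis against the percentage of a library's counts from protein-coding genes under 1000 bases in length. Pycard itself was not counted among these genes. The 54 libraries are drawn with circles for LPS and triangles for PBS. Of the 6 WT sdCAM libraries with LPS, 4 lie at shares of 54.7% to 65.6% and Pycard of 1620 to 2610 CPM, tdT- sdCAMs with LPS lie at 39.4% to 51.4%, and Ccr2-/- sdCAMs with LPS, at 13.7% to 17.8%, hold 220 to 405 CPM.

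Of the caspases, Casp4 rose with LPS in both cell types, while Casp1 was called in no WT or Ccr2-/- response. In WT MG, Casp4 was measured at 15.9, 14.8 and 17.9 CPM with PBS and 30.5, 28.6 and 39.6 CPM after LPS, and in Ccr2-/- MG at 19.4, 14.6 and 16.5 CPM and then 45.5, 41 and 39.2 CPM. Casp4 in Ccr2-/- sdCAMs went from 11.5, 17.9 and 18.8 CPM to 114, 107 and 91.9 CPM. None of these groups overlapped. The log2 fold changes were 1.03 in WT MG (SE 0.219, adjusted p = 0.00432 by edgeR), 1.34 in Ccr2-/- MG (SE 0.262, adjusted p = 0.00126) and 2.7 in Ccr2-/- sdCAMs (SE 0.245, adjusted p = 4.85e-06). The WT MG value sat near the fold limit and the call was lost without CTL mouse 6 (0.87) or PBS mouse 14 (0.97). In WT sdCAMs Casp4 was at 69.7, 39.4 and 52.1 CPM with PBS and at 153, 101 and 157 CPM after LPS. Its log2 fold change of 1.49 (SE 0.44) missed the threshold with an adjusted p of 0.0656 and passed it with DESeq2 (0.02) and in a fit of the 6 libraries alone (0.0458). This gap rests on the scaling, since plain CPM were 58.7, 38.9 and 61.7 with PBS and 52.6, 36.5 and 77.7 after LPS, which overlapped, and the value with library totals was 0.06.

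Casp1 is adjacent to Casp4 on chromosome 9. In WT MG it was at 62.4 ± 10.5 CPM with PBS and 64.1 ± 4.28 CPM after LPS, and in Ccr2-/- sdCAMs at 147 ± 34.1 and 144 ± 28.1 CPM. Over the 4 responses its log2 fold change lay between -0.08 and 0.05, and intervals of 2 SE on either side reached at most from -0.81 to 0.65, in WT sdCAMs, where the value with library totals was -1.55 (adjusted p = 0.101).

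Gsdmd rose in Ccr2-/- sdCAMs and was called in no MG comparison with LPS. In Ccr2-/- sdCAMs it was measured at 70.6, 93.9 and 73.5 CPM with PBS and at 170, 202 and 184 CPM after LPS, without overlap, a log2 fold change of 1.22 (SE 0.166, adjusted p = 0.000133 by edgeR). WT sdCAMs held 30, 56.4 and 77.1 CPM with PBS and 116, 110 and 134 CPM after LPS, and the log2 fold change of 1.29 (SE 0.419) had an adjusted p of 0.0869 by edgeR and 0.0348 by DESeq2. Here the scaling set the direction, as plain CPM were 25.3, 55.7 and 91.2 with PBS and 39.7, 39.4 and 66.2 after LPS, and the value with library totals was -0.25. MG held 149 ± 11.3 and 146 ± 12.9 CPM in WT and 101 ± 9.86 and 111 ± 9.89 CPM in Ccr2-/- mice. After LPS the sdCAM level of Ccr2-/- mice was 186 ± 15.8 CPM. Beside the sdCAM responses, sums of genes listed as markers of other cells moved. In Ccr2-/- sdCAMs the sum of 5 monocyte markers (Ly6c2, Ccr2, Plac8, Chil3, Vcan) went from 2.33 to 5.2 CPM with PBS to 8.82 to 21.2 CPM in CTL mice, and that of 7 neutrophil markers (S100a8, S100a9, Ly6g, Retnlg, Cxcr2, Mmp8, Csf3r) from 104 to 132 CPM to 334 to 383 CPM, with Ly6g and Retnlg at 3 counts or fewer in every library. The MG marker sum went from 1890 to 2860 CPM to 464 to 754 CPM. This sum also fell after LPS in sorted MG, so its fall in sdCAMs does not give the share of microglial RNA. In Ccr2-/- MG it went from 26000 to 26300 CPM to 6910 to 8120 CPM. In WT MG it went from 17500 to 18900 CPM to 3540 to 5720 CPM. In WT sdCAMs the monocyte sum was 28.9 to 52.2 CPM with PBS and 9.32 to 46.4 CPM in CTL mice, the neutrophil sum 109 to 231 and 432 to 3380 CPM, with Ly6g, Retnlg and Cxcr2 at 3 counts or fewer, and the MG sum 4030 to 6760 and 831 to 1570 CPM. The neutrophil sum is not particular to neutrophils. In WT MG with PBS it was 466 to 654 CPM, with S100a8, S100a9, Ly6g, Retnlg, Cxcr2 and Mmp8 at 3 counts or fewer. The part of these marker sums in the members' responses was not tested.

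By count, LPS called 2 of 8 members in WT MG (Nlrp3 and Casp4), against 16.7% of 11789 genes tested, and 1 of 8 in Ccr2-/- MG (Casp4), against 19.4% of 11558. In sdCAMs, 1 of 8 was called in WT mice (Pycard), against 6.32% of 10504 genes, and 4 of 8 in Ccr2-/- mice (Nlrp3, Pycard, Casp4 and Gsdmd), against 21.5% of 11941. All members called were higher after LPS. The median log2 fold change of the 8 members was -0.02 in WT MG, 0.1 in Ccr2-/- MG, 0.56 in WT sdCAMs and 1.19 in Ccr2-/- sdCAMs, beside medians over all genes of 0.02, 0, -0.08 and -0.05. The difference between genotypes in the response was tested as an interaction and called no member in MG or sdCAMs by edgeR, where 0% of 12423 and 0% of 13258 genes were called. Without adjustment, 0 members had p under 0.05 in MG and 3 in sdCAMs (Naip5, Pycard and Casp4), and DESeq2 called 0 in each. The Pycard interaction was -2.01 (SE 0.826, adjusted p = 0.298), with an interval of 2 SE on either side from -3.66 to -0.36, and it passed the threshold without the low-count filter (-2.17, adjusted p = 0.0375).

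Mice whose macrophages had been depleted and had returned were compared with CTL mice after LPS. Both edgeR and DESeq2 called 0 of 8 members in each of the 4 cell and genotype combinations. Pycard in WT sdCAMs was among the values for which DESeq2 gave no adjusted p, which counted as no call. Over all genes, 0.0763% of 11789 were called in WT MG, 0% in WT sdCAMs, 0.0173% in Ccr2-/- MG and 0% in Ccr2-/- sdCAMs. At an unadjusted p under 0.05 there was 1 member in WT MG (Aim2, log2 fold change -0.44), 2 in Ccr2-/- sdCAMs (Nlrp3, -0.81, and Pycard, 0.47) and 0 in the others. The Ccr2-/- sdCAM levels of Nlrp3 were 79.8, 84 and 72.6 CPM in BLZ mice and 168, 121 and 117 CPM in CTL mice, which did not overlap, with an adjusted p of 0.346. In WT sdCAMs the Pycard values of BLZ mice, 342, 244 and 2390 CPM, spread so widely that the interval of 2 SE on either side ran from -2.73 to 0.66, and without BLZ mouse 12 Pycard was called lower, with a log2 fold change of -2.82 (adjusted p = 0.0166). The BLZ libraries left in that fit carry no IEG mark and all CTL libraries carry it, with the short-gene shares given above, so treatment and mark cannot be told apart there.

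In the reporter mice, all of them treated with BLZ945, the MG response was less precise. No member was called in MG by edgeR or DESeq2, against 1.08% of 10882 genes, and 1 member had an unadjusted p under 0.05. This was Nlrp3, at 20, 39.1 and 44.9 CPM with PBS and 76.4, 84.6 and 96.3 CPM after LPS, which did not overlap, with a log2 fold change of 1.26 (SE 0.449, adjusted p = 0.253). Casp4 went from 24.7, 22.2 and 12.3 CPM to 28.2, 45.6 and 40.7 CPM, again without overlap (0.91, SE 0.539, adjusted p = 0.548).

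The sdCAMs of reporter mice were tested on the sum of tdT+ and tdT- counts of each mouse. LPS called 4 of 8 members, all higher, against 25.1% of 12548 genes. These were Pycard with a log2 fold change of 2.05 (SE 0.31, adjusted p = 0.00182 by edgeR), Casp4 with 1.95 (SE 0.294, adjusted p = 0.00182), Nlrp3 with 1.39 (SE 0.365, adjusted p = 0.0205) and Naip5 with 1.17 (SE 0.362, adjusted p = 0.0388). The Pycard and Casp4 calls held in all alternatives run. Nlrp3 was lost without PBS mouse 174 (adjusted p = 0.0854) or 177 (0.0913), and Naip5 in 8 alternatives, among them the exchange of a pair of tdT columns described in the processing (0.0643). Casp1 fell by 0.94 on the log2 scale (SE 0.256, adjusted p = 0.0239), just under the fold limit, and was called lower without the low-count filter (-1.04, adjusted p = 0.0131), without LPS mouse 7 (-1.19, adjusted p = 0.0219) and with library totals (-1.16, adjusted p = 0.0148). Gsdmd had a value of 0.35 (SE 0.239, adjusted p = 0.319). Nlrp1b had the largest value, 2.55 (SE 1.38, adjusted p = 0.202), and was called higher without the low-count filter (2.43, adjusted p = 0.00701). Its PBS libraries held 0 to 47 counts in tdT+ and 0 to 56 counts in tdT- cells.

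Split by reporter, both responses came from one fit of 12 libraries, which treated the tdT+ and tdT- libraries of a mouse as independent. The levels stood side by side as follows. In tdT- sdCAMs, Pycard went from 86.7, 73.6 and 64.2 CPM to 441, 956 and 296 CPM and Casp4 from 18, 14.6 and 24.3 CPM to 131, 130 and 168 CPM. In tdT+ sdCAMs, Pycard went from 99, 100 and 68.2 CPM to 265, 169 and 210 CPM and Casp4 from 43.3, 25.5 and 28.1 CPM to 91.1, 50 and 76.2 CPM. In each of these the LPS libraries lay above the PBS libraries. After LPS the order of tdT- and tdT+ depends on the scaling, since in plain CPM Pycard was at 280, 450 and 207 in tdT- and 315, 220 and 247 in tdT+ libraries, and Casp4 at 83.1, 61.2 and 118 against 108, 64.9 and 89.6, which overlapped. The TMM-scaled Casp4 values also overlapped on the exchange of the column pair. The tdT- response was called for 3 of 8 members, against 26.5% of 12708 genes, with log2 fold changes of 2.91 for Pycard (SE 0.412, adjusted p = 9.73e-05 by edgeR), 2.91 for Casp4 (SE 0.383, adjusted p = 5.21e-05) and 1.96 for Nlrp3 (SE 0.503, adjusted p = 0.00896). Nlrp3 was lost without LPS mouse 5 (1.23, adjusted p = 0.0607) or PBS mouse 177 (1.56, adjusted p = 0.0522) and with library totals (1.05, adjusted p = 0.0858). Without LPS mouse 7 Casp1 was called lower (-1.23, adjusted p = 0.0145), as with library totals (-1.68, adjusted p = 0.00135), and without LPS mouse 5 Naip5 was called higher (1.86, adjusted p = 0.008).

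The tdT+ response was called for 2 of 8 members, against 13.4% of genes, with 1.27 for Pycard (SE 0.39, adjusted p = 0.0417) and 1.16 for Casp4 (SE 0.362, adjusted p = 0.0438). Both were lost on exchange of the column pair (adjusted p = 0.0688 and 0.0589). Left-out libraries ended the Pycard call for LPS mice 1 and 7 and PBS mice 174, 175 and 177, and the Casp4 call for LPS mice 1 and 7 and PBS mice 175 and 177. Aim2 was called higher by DESeq2 (1.5, adjusted p = 0.0393) and with library totals (1.74, adjusted p = 0.0362). Whether the responses of tdT+ and tdT- cells differed was not tested. Beside them, the short-gene share after LPS was 39.4% to 51.4% in tdT- and 6.59% to 7.3% in tdT+ libraries. The summed MG markers in tdT+ libraries ranged from 1210 to 1300 CPM with PBS and from 318 to 3970 CPM after LPS. In reporter MG this sum was 20100 to 23700 CPM with PBS and 4500 to 8560 CPM after LPS. The summed sdCAM markers went from 9390 to 10700 CPM to 905 to 6560 CPM in tdT+ libraries. In tdT- libraries they went from 13100 to 15600 CPM to 6040 to 8270 CPM. The neutrophil sum, which is not particular to neutrophils, went from 123 to 191 CPM to 708 to 2490 CPM in tdT- and from 111 to 135 CPM to 222 to 237 CPM in tdT+ libraries, with Ly6g and Retnlg at 3 counts or fewer. The sum of 5 lymphocyte markers (Cd3e, Trbc2, Nkg7, Cd79a, Ms4a1) ranged from 0.104 to 35.6 CPM with PBS and from 0 to 146 CPM after LPS in tdT- libraries, and from 14.4 to 79.3 CPM and 0.308 to 6.62 CPM in tdT+ libraries. The part of these in the members' values was not tested. At rest, tdT+ and tdT- sdCAMs differed in 0 of 8 members by edgeR and DESeq2, with 0 at an unadjusted p under 0.05 and 0.0236% of genes called, and the log2 differences ran from -0.26 for Aim2 to 1.06 for Naip5. Both populations came from the same mice, and the fit with mouse as a replicate block also called 0 members. Within the mice, Naip5 in tdT+ against tdT- cells was at 21.4 and 13.5, 20.5 and 10.8, and 34.1 and 12 CPM, and Casp4 was also higher in tdT+ cells of each mouse, but both had an adjusted p of 1.

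**Figure D4:**
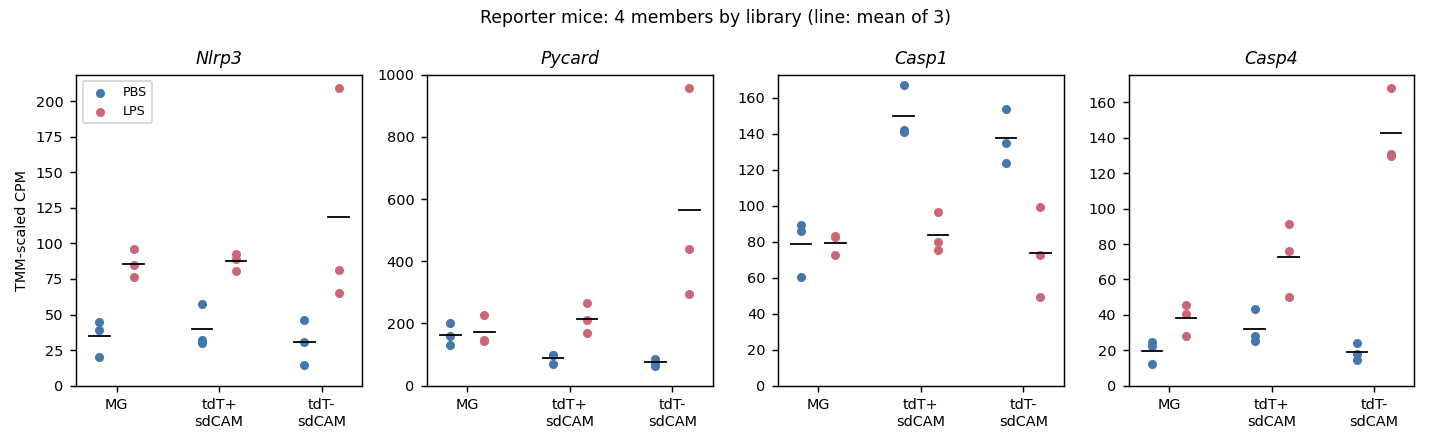
Levels of Nlrp3, Pycard, Casp1 and Casp4 in TMM-scaled CPM in the 18 reporter libraries, with PBS in blue, LPS in red and a line at the mean of 3, on axes that start at 0. Casp4 after LPS lay at 130 to 168 CPM in tdT- and at 50 to 91.1 CPM in tdT+ sdCAMs, a gap that is absent in plain CPM, and Casp1 in both sdCAM populations lay at 49.5 to 99.1 CPM after LPS and at 124 to 167 CPM with PBS.

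Of 50 other genes of the pathway, 49 were among the symbols measured. The list was chosen with earlier results of these data known. LPS called 14 higher and 1 lower of 41 tested in WT MG, 17 higher and 0 lower of 41 in Ccr2-/- MG, 6 higher and 0 lower of 41 in WT sdCAMs, and 17 higher and 4 lower of 43 in Ccr2-/- sdCAMs. Over all genes, 9.08%, 10.5%, 3.7% and 10.9% were called higher in the same order. In either direction these shares were 16.7%, 19.4%, 6.32% and 21.5%. The 12 genes called in at least 3 of these 4 responses were all higher in each response where they were called. Among them were Il1b, the cytokine that caspase-1 matures, with log2 fold changes from 4.13 to 5.07, and Il1rn, which encodes the antagonist of its receptor. Il1rn rose from 5.49 ± 1.56 to 2890 ± 39.3 CPM in Ccr2-/- sdCAMs. Il18bp, a decoy for interleukin-18, rose by 2.00 to 3.81. Zbp1, a sensor of Z-form nucleic acids, rose by 3.55 to 5.47, and Gbp2, a guanylate-binding protein that coats bacteria and LPS, by 2.94 to 4.94. Ripk3 and Mlkl, of the necroptosis pathway, were called in 3 responses each, and their largest values were 3.55 and 4.62, both in Ccr2-/- sdCAMs. Tnfaip3, Pstpip1, Cd14, Gbp3 and Irf1 made up the rest.

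**Figure D5:**
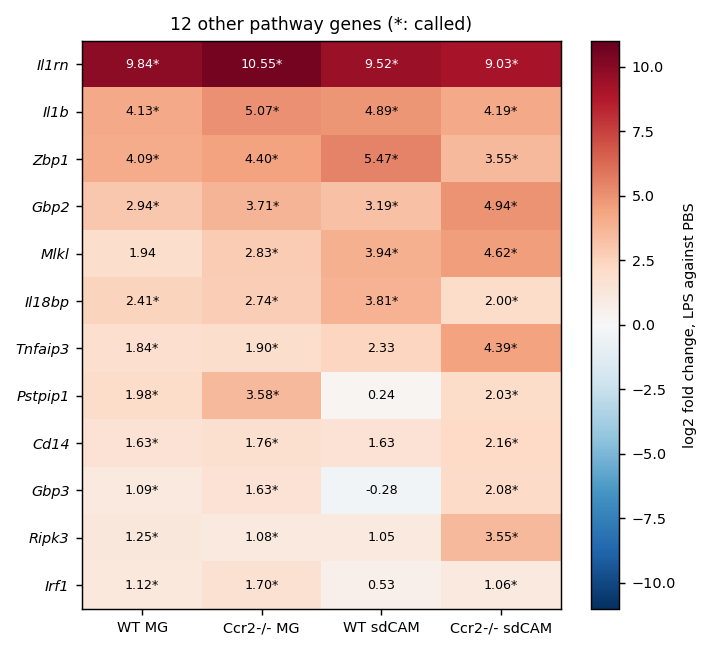
Log2 fold change after LPS against PBS of the 12 other pathway genes called in at least 3 of 4 responses, as numbers and colours, with an asterisk at each call. All called values are positive, from 1.06 to 10.55, and the Il1rn value of 10.55 in Ccr2-/- MG rests on 0 to 3 counts in each PBS library and is no bound.

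A few genes outside that rule are given because they encode partners of the members, and they were chosen after their values were seen. Nlrc4, which encodes the protein that NAIP sensors activate, was close to absent from MG, with 1 to 8 counts in the Ccr2-/- PBS libraries, and was at 53.8 ± 8.43 CPM in WT and 59.2 ± 14.4 CPM in Ccr2-/- sdCAMs with PBS. It fell after LPS to 23.2 ± 2.75 CPM in Ccr2-/- sdCAMs, a log2 fold change of -1.35 (SE 0.259, adjusted p = 0.00172 by edgeR). The other 3 genes lower there were P2rx7, the ATP-gated channel upstream of NLRP3 (-1.61), Tlr4, the cell-surface LPS receptor (-1.30), and Txnip (-1.74). Il1a was lower in sdCAMs than in MG at rest, by -2.52 in WT and -3.69 in Ccr2-/- mice, and rose by 2.90 after LPS in Ccr2-/- sdCAMs.

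Patterns over the 18 group means were compared as a description, with Pearson's r on log2 levels among 8624 genes, and the groups share depth, batch and treatment. The genes most like Casp4 were Dnajc2 (r = 0.971), Mt2 (0.968) and Saa3 (0.963), and those most like Pycard were Tmem167 (0.934), Mtdh (0.934) and Nupr1 (0.929). Casp1 was closest to Cyp51 (0.957), Anxa5 (0.95) and Scpep1 (0.937). Nlrp3 was closest to Sdad1 (0.9), Noc3l (0.892) and Ankrd49 (0.881), Aim2 to Mlph (0.903), Pag1 (0.889) and Tnpo1 (0.888), and Gsdmd to Plod1 (0.861), Nprl3 (0.847) and Aars1 (0.837). For Naip5 they were Tia1 (0.935), Chd7 (0.915) and Cdk6 (0.914). The genes most like Nlrp1b were Herc2 (0.949), Naip5 (0.899) and Ubn2 (0.898), so a member appeared among the closest genes of another once. Per kilobase of annotated transcript, a scale on which genes can be set side by side, Gsdmd was at 83.1 ± 6.29 CPM per kb and Casp1 at 41.7 ± 7 in WT MG with PBS, against 17.1 ± 2.62 for Nlrp3 and 11.3 ± 1.1 for Casp4. In Ccr2-/- sdCAMs with PBS, Casp1 led these with 98.2 ± 22.8 CPM per kb and Casp4 stood at 11.2 ± 2.77, while after LPS Gsdmd, Casp1 and Casp4 were at 104 ± 8.81, 95.9 ± 18.8 and 72.7 ± 7.85, where the SD ranges of Gsdmd and Casp1 overlapped and those of Gsdmd and Casp4 did not.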

How the data were processed

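The authors amplified RNA of sorted cells by SMARTer chemistry, prepared Nextera XT libraries for single-read sequencing and, per the labels, processed reads with STAR 2.7.11a and featureCounts 2.0.8. The authors deposited raw counts, whole numbers for each gene symbol, in 3 tables. The build and the strand setting of counting are not given unambiguously in the sources used here. No unique molecular identifiers were used, so SEs cover these libraries, including amplification scatter.

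Counts were fitted with edgeR 4.0.16 in R 4.3.3 (filterByExpr, TMM, two-sided quasi-likelihood tests, Benjamini-Hochberg adjustment over all genes tested), with DESeq2 1.42.0 and scaling by library totals among the alternatives, and the fits were tested on simulated data. LPS and BLZ contrasts of one genotype and cell type shared 9 libraries. The 8 members and the lists were chosen with earlier results of these data known. Other pathway genes were named if called in at least 3 of 4 LPS responses, up to 12. Like genes needed a mean of 10 CPM. Annotation and promoters were GENCODE M21 and RefSeq (GRCm38).

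MG and sdCAMs came from the same animals, but deviations from group means correlated only from 0 to 0.2 in WT and from -0.13 to 0.33 in Ccr2-/- mice. Titles of Ccr2-/- LPS libraries name the other cell type than their characteristic, which was used. Index numbers of tdT- mouse 1 and tdT+ mouse 7 after LPS are crossed between column names and labels, so their exchange was an alternative. A gene each of the MG, monocyte and lymphocyte lists is not reported here and was left out of the marker sums.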

Additional observations from a re-analysis of the deposited data

Results flagged for a closer look

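The LPS response differed between sdCAMs and MG by an interaction test for 3 members. For Pycard the sdCAM response exceeded the MG response by a log2 value of 4.63 in WT and of 2.2 in Ccr2-/- mice. In Ccr2-/- mice the excess was 1.4 for Casp4 and 1.1 for Gsdmd. The WT Pycard, the Casp4 and the Gsdmd calls were each lost in alternatives given above. Groups of 3 libraries were too small for a search for single libraries far from the others.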

How the results depend on the processing

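Over 387 alternative values of the 30 member calls, none changed sign and 55 lost the call, and over 1836 alternative values of the 138 results without a call, 134 changed sign and 27 gained a call. Library totals in place of TMM, added after the data were seen, ended 6 and gave 3 of these calls and left 1 member called in WT sdCAMs against MG at rest and 1 in the genotype difference of sdCAMs. With this scaling the LPS response was 0.07 for Aim2 and 0.08 for Gsdmd in WT MG, -0.33 for Nlrp3 and -0.25 for Gsdmd in WT sdCAMs, 0.02 for Casp1 in Ccr2-/- MG, and 0.24 for Casp1 and 0.02 for Gsdmd in reporter MG, each with the sign changed. DESeq2 gave no adjusted p for 7 values, Pycard in WT sdCAMs among them. These were left out of the alternative values and counted as no call in the numbers of members called. Members called in the WT sdCAM LPS response were 2 with DESeq2 and 2 in a fit of its 6 libraries alone, in Ccr2-/- MG 2 without a fold limit, in the genotype by LPS interaction of sdCAMs 1 without a low-count filter, and in tdT+ sdCAMs 1 without that filter and 0 on the column exchange. Leaving out 1 library gave 1 to 2 members in WT MG, 0 in WT sdCAMs, 4 to 5 in Ccr2-/- sdCAMs, 2 to 3 in Ccr2-/- sdCAMs against MG at rest, 0 to 1 in repopulated against control WT sdCAMs, 0 to 1 and 1 to 3 in the WT and Ccr2-/- cell type by LPS interactions, 1 to 2 in the genotype difference of MG and of sdCAMs, 2 to 4 in reporter sdCAMs, 2 to 4 in tdT- sdCAMs and 0 to 2 in tdT+ sdCAMs. The mouse as a replicate block changed 1 call, that of Casp1 in Ccr2-/- sdCAMs against MG (0.98), so that 2 members were called there instead of 3, and no other. The cause was not tested for any of these.

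Uncalled values that changed sign when 1 library was left out are given by their range. For WT MG the LPS response on the log2 scale ran from -0.08 to 0.04 for Aim2, from -0.26 to 0.06 for Naip5, from -0.05 to 0.19 for Casp1 and from -0.06 to 0.05 for Gsdmd. For WT sdCAMs the LPS response on the log2 scale ran from -1.35 to 0.24 for Nlrp1b. For Ccr2-/- MG the LPS response on the log2 scale ran from -0.14 to 0.29 for Aim2, from -0.16 to 0.02 for Pycard and from -0.16 to 0.11 for Casp1. For Ccr2-/- sdCAMs the LPS response on the log2 scale ran from -3.03 to 1.61 for Nlrp1b, from -0.29 to 0.15 for Aim2 and from -0.19 to 0.18 for Casp1. For reporter MG the LPS response on the log2 scale ran from -0.12 to 0.19 for Pycard, from -0.14 to 0.08 for Casp1 and from -0.56 to 0.28 for Gsdmd. Casp1 in reporter MG was 0.05 with DESeq2, with median-of-ratios size factors and without the low-count filter, and in Ccr2-/- sdCAMs 0 without that filter.

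Plain CPM moved 48 of 144 group means by more than 1 SD. Few counts limited the precision of Nlrp1b, with 0 to 44 in Ccr2-/- sdCAMs of CTL mice, and groups of 3 limited every value.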
